A study of Mus musculus with 8 samples.

Results

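Expression of 10 genes of the bone morphogenetic protein (BMP) and transforming growth factor-beta (TGF-beta) pathway was examined in mouse hematopoietic stem cells (HSCs) during hemolytic anemia. The genes were chosen by name: the receptors Bmpr1a, Bmpr2, Tgfbr1 and Tgfbr2, the Smads Smad1, Smad5 and Smad7, and the target genes Id1, Id2 and Id3. All 10 were among the 15142 genes listed in every expression table, and 9 of them were among the 11347 genes that reached 1 FPKM (fragments per kilobase, a level corrected for gene length and library depth) in at least 2 libraries and were tested. Bmpr1a did not reach that level.

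HSCs were sorted from wild-type C57BL/6 mice as lineage- Sca-1+ c-kit+ CD150+ CD48-/low cells. Phenylhydrazine (PHZ), a drug that destroys red blood cells, was injected into the peritoneum at 60 mg/kg in 2 injections, and sorting took place 3 days after the final dose. PHZ BM HSCs (3 libraries) and PHZ SP HSCs (2 libraries) came from the bone marrow and the spleen of such mice, and control BM HSCs (3 libraries) came from the marrow of mice whose labels give PBS as treatment. The study's methods give young adult mice of both sexes for the work as a whole, and the age, sex and number of animals behind each library are not given in the sources used here. Without splenic HSCs from mice not given PHZ, effects of the spleen and of the drug cannot be told apart in a comparison of PHZ SP HSCs with control BM HSCs.

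BMP and TGF-beta ligands bind paired type II and type I receptors at the cell surface. BMP receptors phosphorylate Smad1 and Smad5, TGF-beta and activin receptors phosphorylate Smad2 and Smad3, and each of these joins Smad4 to regulate genes in the nucleus. TGF-beta is known for keeping HSCs quiescent, and BMP4 with Smad5 is known for driving stress erythropoiesis in the mouse spleen. The Id genes are classical BMP targets whose proteins bind E proteins, basic helix-loop-helix transcription factors, and keep them off DNA.

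Promoter sequences of Id3 and Id2 are shown because these Id genes had the largest differences on the log2(FPKM + 1) scale between PHZ SP HSCs and control BM HSCs. Smad7 was ahead of Id2 with 0.1 FPKM added in place of 1 (1.80 beside 1.30), with a fit of reads by voom (2.07 beside 1.26) and by ratio of means (3.26 beside 2.15). Without control replicate 1, Id1, Smad7 and Smad1 were ahead of Id2 in the size of the difference. Bmpr2, Tgfbr2 and Smad7 were ahead of Id2 without PHZ SP HSC replicate 2, and Id1 was ahead of Id3 without PHZ SP HSC replicate 1. Each window, from RefSeq on GRCm38.p6, runs from 250 bases before the transcription start to 50 bases after it and is 300 bases long. Capitals mark matches to letters bound by Smads, searched on both strands: CAGAC, which reads GTCTG on the other strand, in Id3, and GGCGCC in Id2.
Id3, chr4:136143572-136143871, plus strand: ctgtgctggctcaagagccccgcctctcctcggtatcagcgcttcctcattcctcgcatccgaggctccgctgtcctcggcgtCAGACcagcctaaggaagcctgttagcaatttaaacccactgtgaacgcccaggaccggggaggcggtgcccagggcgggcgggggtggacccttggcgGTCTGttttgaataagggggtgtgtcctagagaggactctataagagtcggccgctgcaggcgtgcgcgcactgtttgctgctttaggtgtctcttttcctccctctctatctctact
Id2, chr12:25096043-25096342, minus strand: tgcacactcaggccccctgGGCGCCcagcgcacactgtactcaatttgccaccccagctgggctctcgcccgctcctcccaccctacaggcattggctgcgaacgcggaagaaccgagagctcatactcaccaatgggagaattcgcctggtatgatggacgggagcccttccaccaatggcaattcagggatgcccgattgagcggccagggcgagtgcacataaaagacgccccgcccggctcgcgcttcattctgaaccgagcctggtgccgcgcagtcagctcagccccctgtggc

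The Id3 window held CAGAC starting at positions -167 and -68 relative to the start, and the Id2 window held GGCGCC from position -231. Of the 10 genes, 8 had an entry, with 11 windows in all. GGCGCC was found in 6 windows, of Bmpr1a, Bmpr2, Tgfbr1, Smad5 and Id2, but at 5 distinct positions, since a pair of overlapping Smad5 windows shared a match, and CAGAC in 4 windows, of Tgfbr1, Tgfbr2, Smad5 and Id3. Over all 32851 promoter windows of this length the shares were 11.9% for GGCGCC and 49.6% for CAGAC. The motif of ATF and CREB factors (TGACGTCA, in 1.79% of all windows) and that of EGR factors (GCGTGGGCG, in 0.612%) were in none of the 11 windows. A match is a match of letters and was not tied to binding by any measurement here.

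The paralogs in the set share only short stretches of coding sequence, which bears on how far reads could be counted for the wrong gene. The longest identical run between the longest annotated coding sequences of Id2 and Id3 was 15 bases, and that between Smad1 and Smad5 was 17 bases.
Id2 (chr12:25095812-25095826, minus strand) and Id3 (chr4:136144078-136144092, plus strand): TGGAAATCCTGCAGC
Smad1 (chr8:79372092-79372108, minus strand) and Smad5 (chr13:56723672-56723688, plus strand): GAAGAGAAATGGGCAGA

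Read totals recovered from the expression tables were 8216167 to 13199736 per library, of which the ribosomal RNA gene Rn45s took 43.3% to 48.6%, so that 4656102 to 7159682 reads were left for all other genes. Nothing in the labels says that libraries of a group came from separate animals, so p-values measure the spread between libraries, which may be technical in part. All 12 HSC marker genes on a fixed list were detected in every group and none passed the test at the adjusted threshold. An unadjusted p under 0.05 was found for 3 between the marrow groups, 4 between the PHZ groups and 5 between PHZ SP HSCs and control BM HSCs. Over all genes tested the shares were 16.6%, 13.5% and 15.8%. Summed levels of the 12 were 486 to 589 FPKM in control BM HSCs, 532 to 626 in PHZ BM HSCs and 557 to 590 in PHZ SP HSCs. Erythroid markers summed to 604 to 760, 577 to 722 and 1498 to 1632 FPKM, and neutrophil markers to 319 to 655, 335 to 842 and 1299 to 1659 FPKM, in the same order. Immediate early genes, which are induced within minutes of stimulation, summed to 110 to 140, 840 to 1059 and 277 to 320 FPKM. In PHZ SP HSCs, 2 of 11 erythroid and 1 of 7 neutrophil genes were called higher than in PHZ BM HSCs, and 5 and 1 higher than in control BM HSCs. Of 11 immediate early genes, 9 were called higher in PHZ BM HSCs than in control BM HSCs. In PHZ SP HSCs 6 were called lower than in PHZ BM HSCs, and 4 higher than in control BM HSCs. Of the other lists, NK and T cell markers summed to 20.5 to 61.6, 31.3 to 49.5 and 43.8 to 53.7, B cell markers 26.8 to 50.6, 28.2 to 30.5 and 38.3 to 53.8, macrophage and monocyte markers 253 to 287, 204 to 260 and 351 to 354, megakaryocyte markers 114 to 135, 82.1 to 101 and 87.8 to 141, and endothelial markers 12.3 to 14.7, 17.6 to 21.6 and 25.2 to 25.8 FPKM. On these other lists the calls were Klrb1c, a natural killer cell receptor gene, and the platelet chemokine genes Pf4 and Ppbp. Klrb1c was higher in PHZ SP HSCs (16.6 ± 2.61 FPKM) than in control BM HSCs (0.947 ± 0.423, adjusted p = 0.000866) and PHZ BM HSCs (2.58 ± 0.428, adjusted p = 0.00477). Of the 2 NK and T cell genes tested, the other, Nkg7, was not called. Its mean was lower in PHZ SP HSCs (27.4 ± 0.676 FPKM) than in control BM HSCs (36.7 ± 20.85) and PHZ BM HSCs (36.2 ± 9.03). Pf4 and Ppbp were lower in PHZ BM HSCs than in control BM HSCs (adjusted p = 0.0425 and 0.0265). The call of Klrb1c between the PHZ groups was lost without PHZ SP HSC replicate 1 or 2 (adjusted p = 0.0631 and 0.0576), that of Pf4 without any of the 6 marrow libraries (0.0657 to 0.165), and that of Ppbp without any of these but PHZ BM HSC replicate 2 (0.0527 to 0.118). The calls of Pf4 and Ppbp were also lost with no filter (0.108 and 0.0656) and with voom (0.0801 and 0.167), and that of Pf4 with 0.1 FPKM added (0.0501). The 10 proliferation genes on a fixed list summed to 119 to 176, 19.9 to 42.5 and 139 to 146 FPKM. Of these, 8 were called lower in PHZ BM HSCs than in control BM HSCs, and 5 were called higher in PHZ SP HSCs than in PHZ BM HSCs. The part of any of these gene groups in the results that follow was not tested. Fewer cells of a type and less RNA per cell cannot be told apart in bulk libraries.

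None of the 9 tested genes passed an adjusted p of 0.05 in any of 3 comparisons (limma on log2(FPKM + 1), p-values adjusted by Benjamini-Hochberg over every tested gene). Over all genes, the test called 2.74% (311 genes) between PHZ BM HSCs and control BM HSCs, 0.978% (111) between PHZ SP HSCs and PHZ BM HSCs, and 0.758% (86) between PHZ SP HSCs and control BM HSCs. At an unadjusted p under 0.05, 2, 1 and 2 of the 9 genes were found, which is 22.2%, 11.1% and 22.2% beside 16.6%, 13.5% and 15.8% of all genes tested. Id3 was the gene found between the PHZ groups, and Id3 and Smad7 were those found between PHZ SP HSCs and control BM HSCs. Neither would have passed the filter on control libraries alone, so these shares are not independent of the filter. With voom, which fits the recovered reads instead, 0 of the 9 passed in each comparison, and 2, 0 and 2 had an unadjusted p under 0.05. The 3 comparisons share libraries in pairs and are not independent of each other.

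**Figure D1:**
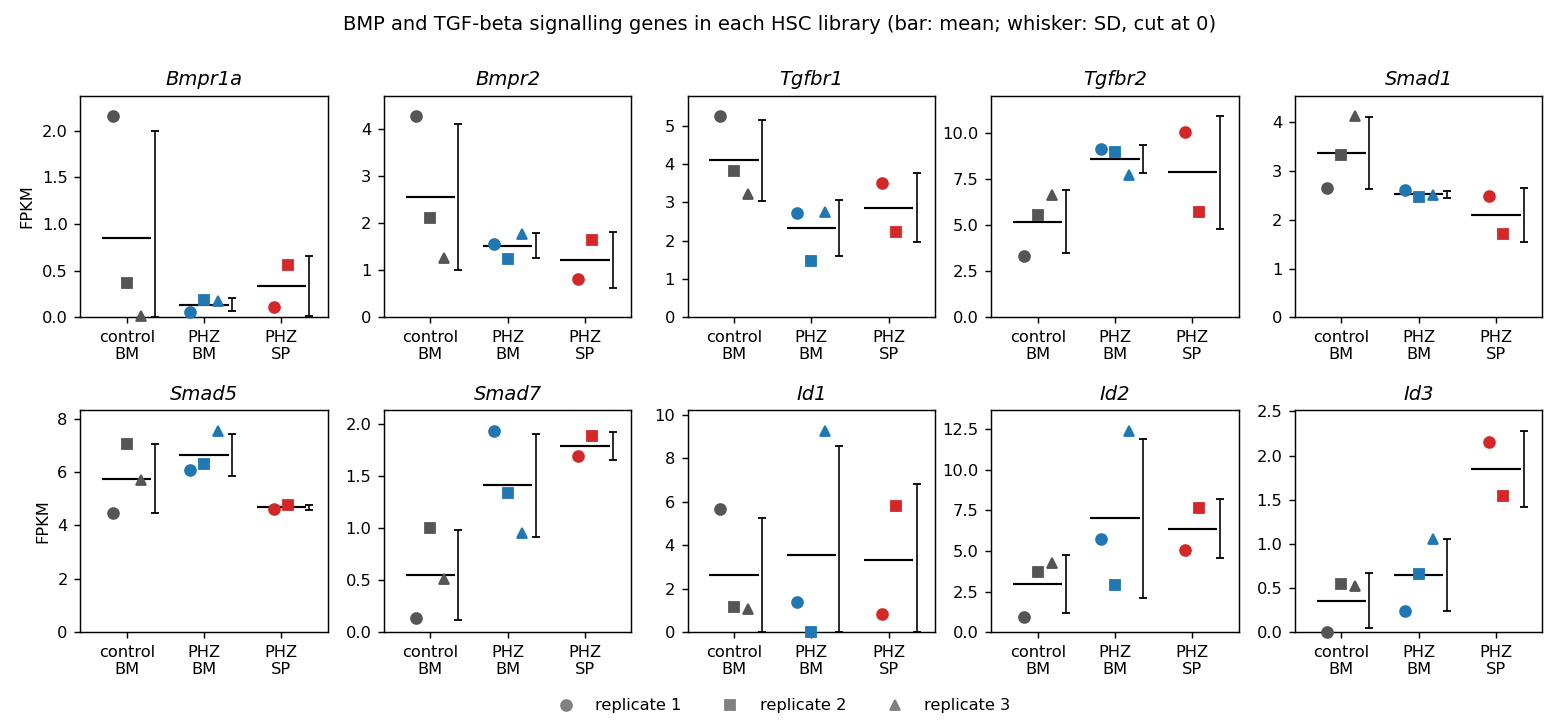
Expression in FPKM (y axis, linear, from 0) of the 10 genes in each library of control BM HSCs, PHZ BM HSCs and PHZ SP HSCs; symbols stand for replicates 1 to 3, horizontal bars for group means and whiskers for SD, cut at 0. Id3 and Smad7 had their highest means in PHZ SP HSCs (1.85 and 1.80 FPKM), whereas Id1 ranged from 0 to 9.27 FPKM within PHZ BM HSCs alone.

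Among the genes on this per-length scale, Tgfbr2 had the highest mean over the 8 libraries, 7.16 FPKM, at percentile 61.1 of all genes tested. Smad5 (5.82 FPKM) and Id2 (5.34 FPKM) were near the middle of the tested genes, at percentiles 54.8 and 52.1. Id1, Tgfbr1, Smad1 and Bmpr2 followed at 3.15, 3.12, 2.73 and 1.84 FPKM. Smad7 (1.19 FPKM), Id3 (0.840 FPKM) and Bmpr1a (0.453 FPKM) were at the bottom, at percentiles 10.6, 4.76 and 0.264. The 10 genes together summed to 27.4 to 28.9 FPKM in control BM HSCs, 25.6 to 46.2 in PHZ BM HSCs and 31.4 to 33.5 in PHZ SP HSCs.

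The receptors were of mixed pattern, with the TGF-beta type II receptor gene at higher means after PHZ and the other receptor genes at lower means. Tgfbr2 (chr9:116087695-116175363), which encodes the receptor that binds TGF-beta first, was at 3.32, 5.59 and 6.68 FPKM in the control BM HSC libraries, 9.13, 9.01 and 7.74 in PHZ BM HSCs, and 10.1 and 5.71 in PHZ SP HSCs. All PHZ BM HSC values were above all control values, while the PHZ SP HSC libraries overlapped both other groups. The means were 5.20 ± 1.71 (SD), 8.63 ± 0.772 and 7.88 ± 3.08 FPKM. The difference between PHZ BM HSCs and control BM HSCs was 0.67 ± 0.27 (SE) on the log2(FPKM + 1) scale, with a 95% interval of 0.08 to 1.27, an unadjusted p of 0.0305 and an adjusted p of 0.235. Against control BM HSCs, the PHZ SP HSC difference was 0.51 with an interval of -0.15 to 1.18 (adjusted p = 0.442), and leaving out PHZ SP HSC replicate 1 or 2 put it at 0.15 or 0.88.

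Tgfbr1 (chr4:47353222-47414926), the type I receptor kinase that Tgfbr2 recruits, was at 5.26, 3.81 and 3.21 FPKM in control BM HSCs, 2.74, 1.48 and 2.75 in PHZ BM HSCs, and 3.50 and 2.23 in PHZ SP HSCs. Here every PHZ BM HSC value was below every control value, opposite in direction to Tgfbr2. Means were 4.10 ± 1.05, 2.32 ± 0.731 and 2.87 ± 0.896 FPKM. Between the marrow groups the log2 difference was -0.62 ± 0.28 (interval -1.23 to -0.02, unadjusted p = 0.0444, adjusted p = 0.284). In PHZ SP HSCs it was -0.40 against control BM HSCs and 0.23 against PHZ BM HSCs, with adjusted p-values of 0.570 and 0.809. Leaving out PHZ SP HSC replicate 1 or 2 put the former at -0.64 or -0.16.

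Bmpr2 (chr1:59764279-59878081), the BMP type II receptor, was at 4.29, 2.12 and 1.27 FPKM in control BM HSCs, at 1.57, 1.25 and 1.76 in PHZ BM HSCs, and at 0.807 and 1.64 in PHZ SP HSCs. The groups overlapped in every comparison, and the high control mean (2.56 ± 1.56) rested on replicate 1. The log2 difference between PHZ BM HSCs and control BM HSCs was -0.41 (adjusted p = 0.582), and -0.08 without that library. Against control BM HSCs, PHZ SP HSCs differed by -0.61, with an interval of -1.43 to 0.20 and an adjusted p of 0.452, and by -0.92 with 0.1 FPKM added and -0.93 with voom.

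Bmpr1a (chr14:34411061-34503336), the BMP type I receptor, was near the limit of detection in most libraries. Its reads numbered 134, 21 and 1 in control BM HSCs, 4, 11 and 14 in PHZ BM HSCs, and 8 and 37 in PHZ SP HSCs, or 2.16, 0.366 and 0.0123, 0.0601, 0.184 and 0.171, and 0.113 and 0.560 FPKM. A single library, control replicate 1, exceeded 1 FPKM, and all groups overlapped. Fitted with no filter on low values, the log2 difference between PHZ BM HSCs and control BM HSCs was -0.52 (adjusted p = 0.608), and -0.05 without control replicate 1. That between PHZ SP HSCs and control BM HSCs was -0.31 (adjusted p = 0.769), and 0.16 without the same library.

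Neither Smad that carries the BMP signal, Smad1 or Smad5, passed the test. Smad1 (chr8:79338395-79399428) was at 2.647, 3.32 and 4.12 FPKM in control BM HSCs, 2.604, 2.46 and 2.49 in PHZ BM HSCs, and 2.48 and 1.70 in PHZ SP HSCs. Every library of both PHZ groups was below every control library, with control replicate 1 (2.647 FPKM) and PHZ BM HSC replicate 1 (2.604 FPKM) almost level. The log2 difference from control BM HSCs was -0.30 (interval -0.82 to 0.23, adjusted p = 0.585) in PHZ BM HSCs and -0.49 (interval -1.08 to 0.10, adjusted p = 0.399) in PHZ SP HSCs. The latter was -0.31 without PHZ SP HSC replicate 2, -0.68 without replicate 1 and -0.70 with voom.

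Smad5 (chr13:56703010-56742378) was at 4.47, 7.05 and 5.71 FPKM in control BM HSCs, 6.09, 6.31 and 7.55 in PHZ BM HSCs, and 4.62 and 4.75 in PHZ SP HSCs. Both PHZ SP HSC libraries were below all PHZ BM HSC libraries but within the control range. The log2 difference between PHZ SP HSCs and PHZ BM HSCs was -0.42 ± 0.25 (interval -0.97 to 0.12, adjusted p = 0.494). That between PHZ BM HSCs and control BM HSCs was 0.19 (adjusted p = 0.710), and that between PHZ SP HSCs and control BM HSCs was -0.23 (adjusted p = 0.696).

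Smad7 (chr18:75367365-75395935), the inhibitory Smad that is itself induced by TGF-beta and blocks the type I receptor, was at 0.136, 1.003 and 0.516 FPKM in control BM HSCs. In PHZ BM HSCs it was at 1.94, 1.34 and 0.958 FPKM, and in PHZ SP HSCs at 1.70 and 1.89 FPKM. Both splenic libraries were above all control libraries, and PHZ BM HSCs overlapped the control range in replicate 3. These levels rested on few reads, 6 to 41 per control library and 56 to 92 per PHZ library. Means were 0.552 ± 0.435, 1.41 ± 0.495 and 1.80 ± 0.135 FPKM. The log2 difference from control BM HSCs was 0.66 (interval -0.01 to 1.32, adjusted p = 0.304) in PHZ BM HSCs and 0.89 ± 0.34 (interval 0.15 to 1.63, unadjusted p = 0.0232, adjusted p = 0.233) in PHZ SP HSCs. Because 1 FPKM was added before taking logs, these values understate the change of so low a gene, and with 0.1 FPKM added they were 1.43 and 1.80 (adjusted p = 0.306 and 0.269). Smad7 reached 1 FPKM in 5 libraries, of which replicate 2 was the only control library. It would not have passed the filter on control libraries alone, so its place among the tested genes is not independent of its difference.

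Id3 (chr4:136143822-136145392) had a larger difference than the other 8 tested genes between PHZ SP HSCs and control BM HSCs on the log2(FPKM + 1) scale with all libraries, but not with a replicate block (1.22 beside 1.36 for Id2), without control replicate 3 (1.19 beside 1.27) or without PHZ SP HSC replicate 1 (0.93 beside 1.25). It was at 0, 0.547 and 0.529 FPKM in control BM HSCs, 0.236, 0.658 and 1.05 in PHZ BM HSCs, and 2.16 and 1.54 in PHZ SP HSCs. Both splenic libraries were above all 6 marrow libraries, and the marrow groups overlapped. The read numbers behind these values were 0, 8 and 11, then 4, 10 and 22, then 39 and 26. For the control library without a read, a count of 0 allows up to 3 reads or 0.190 FPKM, a limit that covers counting error only.

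The group means of Id3 were 0.358 ± 0.311, 0.648 ± 0.408 and 1.85 ± 0.432 FPKM, a ratio of 5.16 between PHZ SP HSCs and control BM HSCs. On the log2(FPKM + 1) scale this difference was 1.09 ± 0.36 (interval 0.30 to 1.87), with an unadjusted p of 0.0110 and an adjusted p of 0.172. With 0.1 FPKM added in place of 1 it was 2.49 (adjusted p = 0.278), and with voom on the recovered reads 3.06 (adjusted p = 0.260). Against PHZ BM HSCs, PHZ SP HSCs differed by 0.81 ± 0.36 (interval 0.03 to 1.60, unadjusted p = 0.0440, adjusted p = 0.355), by 1.54 with 0.1 FPKM added and by 1.65 with voom, where the unadjusted p was 0.159 and 0.152. Between the marrow groups the Id3 difference was 0.28, and it was 0.95 with 0.1 FPKM added and 1.41 with voom (adjusted p = 0.716, 0.655 and 0.650). Id3 reached 1 FPKM in 3 libraries, all from PHZ-treated mice, and entered the test through them, so its place among the tested genes is not independent of its difference.

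Id2 (chr12:25093799-25096092), also an inhibitor of E proteins, was at 0.935, 3.71 and 4.27 FPKM in control BM HSCs, 5.71, 2.92 and 12.4 in PHZ BM HSCs, and 5.09 and 7.66 in PHZ SP HSCs. The splenic libraries were above all control libraries, and the PHZ BM HSC libraries spanned a wider range than either other group. The means were 2.97 ± 1.78, 7.02 ± 4.88 and 6.38 ± 1.82 FPKM. From control BM HSCs, the log2 difference was 0.96 (interval -0.06 to 1.98, adjusted p = 0.328) in PHZ BM HSCs and 0.999 (interval -0.14 to 2.14, adjusted p = 0.377) in PHZ SP HSCs. The former was 0.50 without PHZ BM HSC replicate 3, the library at 12.4 FPKM. The 2 PHZ groups differed by 0.04 ± 0.52, with an adjusted p of 0.987.

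Id1 (chr2:152736251-152737410), the Id family member with the widest spread here, was at 5.64, 1.14 and 1.07 FPKM in control BM HSCs, 1.40, 0 and 9.27 in PHZ BM HSCs, and 0.848 and 5.80 in PHZ SP HSCs. Each group held a library above 5 FPKM, and its lowest library was at 1.07, 0 or 0.848 FPKM. For the PHZ BM HSC library without a read, a count of 0 allows up to 0.275 FPKM. The SE of the Id1 difference between the marrow groups, 0.78, was at percentile 99.8 of all genes tested, and that of Id2, 0.46, at percentile 96.15, beside a median of 0.27. The log2 difference was -0.09 (interval -1.79 to 1.62, adjusted p = 0.970) between the marrow groups, where the ratio of mean FPKM was 1.36 and so had the opposite sign. It was -0.86 with 0.1 FPKM added in place of 1 and -0.95 with voom (adjusted p = 0.820 and 0.809). Against control BM HSCs the PHZ SP HSC difference was 0.20 (interval -1.71 to 2.11, adjusted p = 0.940), an interval that spans changes of over 2-fold in either direction.

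**Figure D2:**
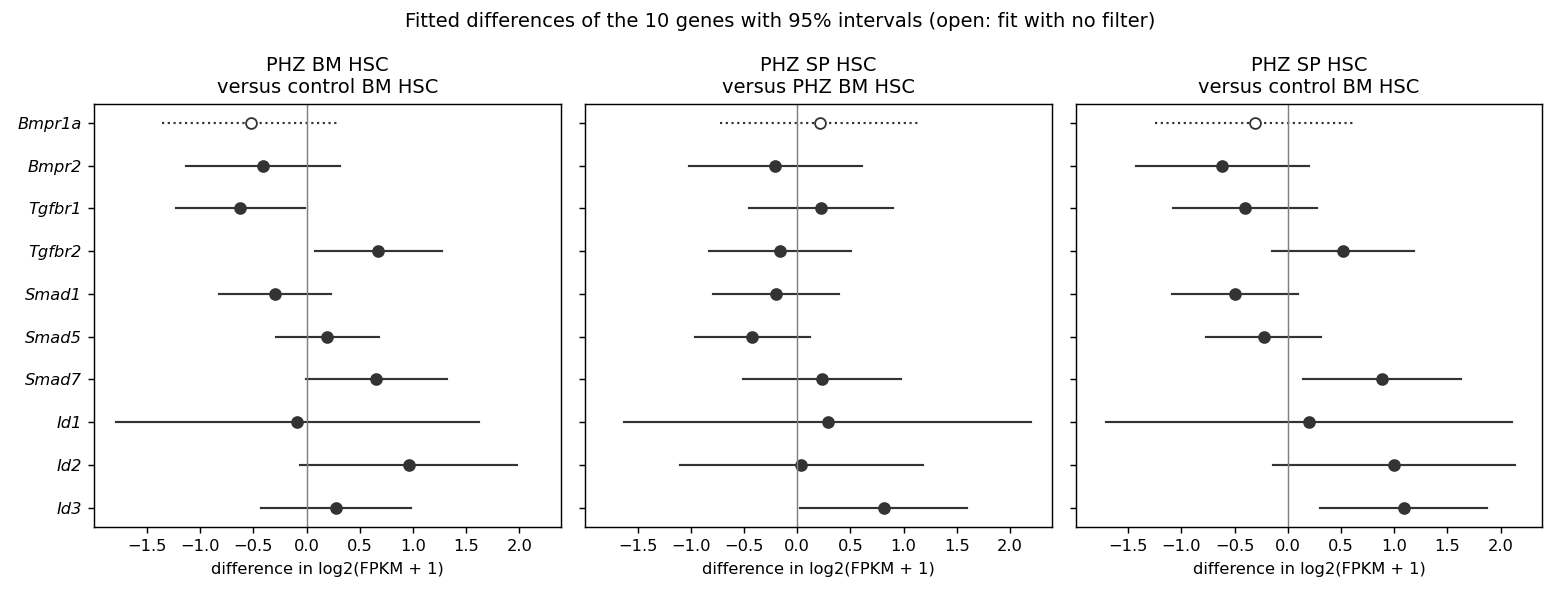
Fitted difference in log2(FPKM + 1) (x axis) of the 10 genes in each of 3 comparisons, first group minus second, with 95% intervals as lines; Bmpr1a, drawn open and dotted, is from the fit with no filter on low values. Intervals lie on the side of 0 of their estimate for Tgfbr1 and Tgfbr2 between the marrow groups for Id3 and Smad7 between PHZ SP HSCs and control BM HSCs, and for Id3 between the PHZ groups, and the Id1 intervals are the widest.

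Beyond single genes, the groups of most members overlapped in each comparison. Between PHZ BM HSCs and control BM HSCs 3 of 9 did not overlap (Tgfbr1, Tgfbr2 and Smad1), where 23.9% of all genes tested did not. Between PHZ SP HSCs and PHZ BM HSCs it was 2 of 9 (Smad5 and Id3), beside 34.8% of all genes. Between PHZ SP HSCs and control BM HSCs it was 4 of 9 (Smad1, Smad7, Id2 and Id3), beside 28.9%. Of these, Smad7 and Id3 would not have passed the filter on control libraries alone. In each comparison 5 of the 9 had a positive and 4 a negative log2 difference, with medians of 0.20, 0.04 and 0.20 beside 0.01, -0.02 and 0.00 over all genes tested. The median size of the difference, whatever its sign, was 0.41, 0.23 and 0.52 for the 9 genes and 0.27, 0.27 and 0.30 for all genes.

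Control replicate 1 stood at an end of the range for 8 of the 10 genes. It had the highest of the 8 values for Bmpr1a, Bmpr2 and Tgfbr1 and the lowest for Tgfbr2, Smad5, Smad7, Id2 and Id3, and over all genes tested it was highest or lowest for 43.0%. The other libraries were at an end for 0 to 3 of the 10 genes and for 16.7% to 33.4% of all genes. Without control replicate 1, the difference between PHZ BM HSCs and control BM HSCs was 0.43 for Tgfbr2 and -0.47 for Tgfbr1, and no tested member had an unadjusted p under 0.05 in that comparison. Id2 was at 0.51 without it between the marrow groups and at 0.54 between PHZ SP HSCs and control BM HSCs, in place of 0.96 and 0.999. In the latter comparison, leaving out the same library gave 0.88 for Id3, 0.68 for Smad7, 0.28 for Tgfbr2, -0.24 for Tgfbr1, -0.28 for Bmpr2, -0.62 for Smad1, -0.37 for Smad5 and 0.75 for Id1.

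All differences depended on single libraries to some degree, given here as the lowest and highest value when each library was left out in turn. Between PHZ BM HSCs and control BM HSCs these were -0.87 to -0.0485 for Bmpr1a, -0.69 to -0.0796 for Bmpr2, -0.75 to -0.43 for Tgfbr1, 0.43 to 0.85 for Tgfbr2, -0.42 to -0.17 for Smad1, 0.0526 to 0.33 for Smad5 and 0.45 to 0.86 for Smad7. For the Id genes they were -0.997 to 0.68 (Id1), 0.50 to 1.39 (Id2) and 0.0697 to 0.47 (Id3). Between PHZ SP HSCs and control BM HSCs they were -0.66 to 0.16 for Bmpr1a, -0.89 to -0.28 for Bmpr2, -0.64 to -0.16 for Tgfbr1, 0.15 to 0.88 for Tgfbr2, -0.68 to -0.31 for Smad1, -0.37 to -0.0919 for Smad5 and 0.68 to 1.09 for Smad7. Id1, Id2 and Id3 ranged there from -0.74 to 1.14, from 0.54 to 1.27 and from 0.88 to 1.24. Between the PHZ groups Smad1, Smad5, Smad7 and Id3 kept their sign, at -0.38 to -0.0148, -0.48 to -0.34, 0.0908 to 0.38 and 0.62 to 0.99, and the other 6 genes did not.

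A wider list of 95 genes of the pathway, set down by role, was counted in the same fit. Of these, 70 were listed and 48 tested, and calls were made for 2 genes, Junb and Tsc22d1, both on the list of 15 other target genes, of which 8 were tested. That is 2 higher and 0 lower between PHZ BM HSCs and control BM HSCs (4.17% of the 48, beside 2.74% of all genes tested), 0 higher and 1 lower between PHZ SP HSCs and PHZ BM HSCs (2.08%, beside 0.978%), and 2 higher and 0 lower between PHZ SP HSCs and control BM HSCs (4.17%, beside 0.758%). Medians of the 48 log2 differences were -0.15, -0.04 and -0.13. Of the 8 other target genes tested, 7 had a positive difference from control BM HSCs in PHZ BM HSCs. In PHZ SP HSCs 5 of the 8 did. Klf10, on the same list, went the other way, at -0.90 in PHZ BM HSCs and -1.07 in PHZ SP HSCs (adjusted p = 0.102 and 0.109). None of the 7 ligands, 3 other receptors, 4 co-receptors, 3 other Smads, 6 ligand traps and latency genes, 14 intracellular regulators and 3 E proteins tested passed in any comparison. An unadjusted p under 0.05 was found for 10, 9 and 12 of the 48 genes, or 20.8%, 18.8% and 25.0%, beside 16.6%, 13.5% and 15.8% of all genes tested.

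Junb, an AP-1 subunit that TGF-beta can induce and that is also an immediate early gene, was at 15.4 ± 3.95 FPKM in control BM HSCs, 141 ± 6.30 in PHZ BM HSCs and 39.1 ± 6.92 in PHZ SP HSCs. It rose in PHZ BM HSCs by 3.14 ± 0.19 on the log2 scale (adjusted p = 8.65e-06) and was lower in PHZ SP HSCs than in PHZ BM HSCs, at -1.83 ± 0.21 (adjusted p = 0.00389). Against control BM HSCs it was higher in PHZ SP HSCs by 1.30 ± 0.21 (adjusted p = 0.0202). Fos, the immediate early gene that pairs with Jun proteins, moved with it, at 1.13 to 2.98, 140 to 162 and 6.08 to 13.8 FPKM in the 3 groups. Without PHZ SP HSC replicate 2, the adjusted p of Junb was 0.0528 between the PHZ groups and 0.0580 against control BM HSCs, and without PHZ SP HSC replicate 1 the latter was 0.177. The call against control BM HSCs was also lost with no filter on low values (adjusted p = 0.0507) and with only these 2 groups in the fit (0.0879), the difference staying at 1.30 in both. It was 1.13 and 1.48 without PHZ SP HSC replicates 1 and 2.

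Tsc22d1, a leucine zipper gene first known as TGF-beta-stimulated clone 22, was at 29.8 ± 2.11 FPKM in control BM HSCs, 65.1 ± 13.4 in PHZ BM HSCs and 64.2 ± 1.63 in PHZ SP HSCs. It rose against control BM HSCs by 1.08 ± 0.16 in PHZ BM HSCs (adjusted p = 0.00573) and by 1.08 ± 0.18 in PHZ SP HSCs (adjusted p = 0.0261). The 2 PHZ groups differed by -0.0005 on the log2 scale, with an adjusted p of 0.999. Its call in PHZ SP HSCs was lost with no filter (adjusted p = 0.0545) and without any of the following libraries: control replicates 1, 2 and 3 (0.0550, 0.0585 and 0.0696), PHZ BM HSC replicate 2 (0.0507) and PHZ SP HSC replicates 1 and 2 (0.172 and 0.111). The size of that difference stayed between 1.03 and 1.13 in those fits.

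**Figure D3:**
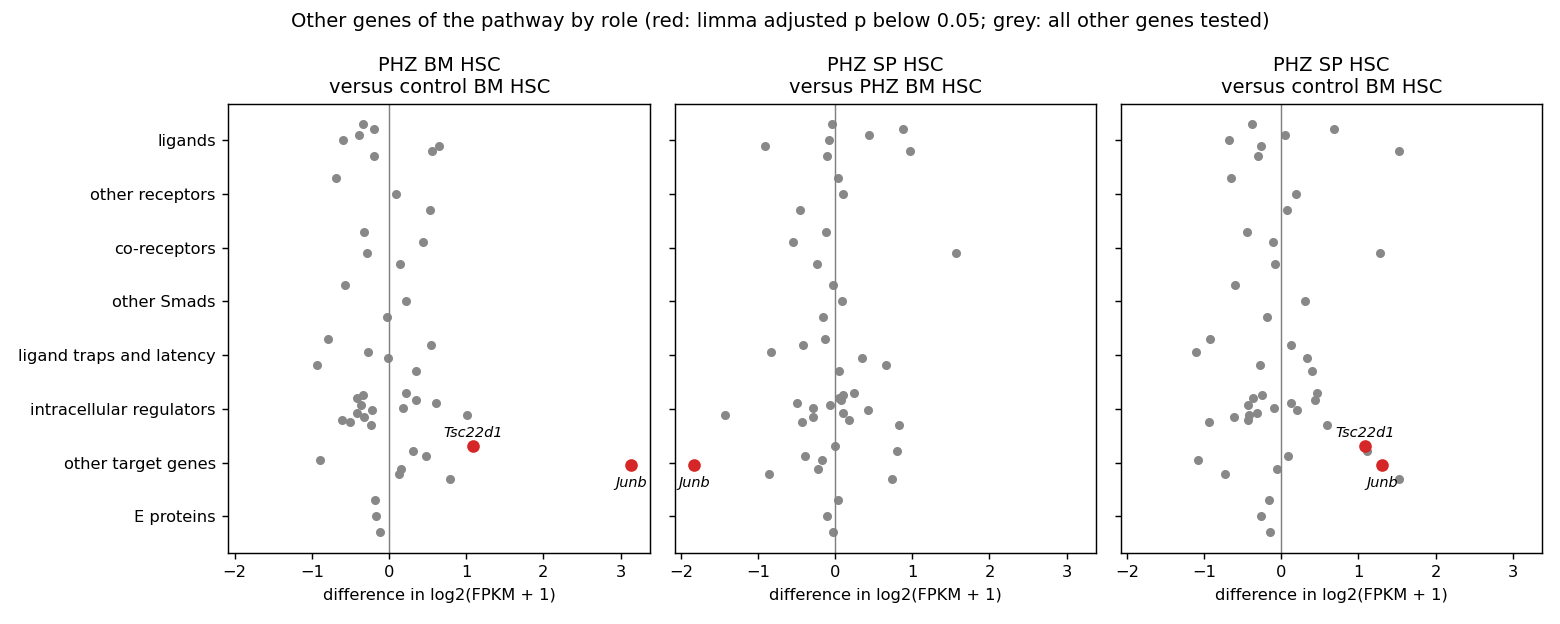
Difference in log2(FPKM + 1) (x axis) of the 48 other pathway genes tested, in rows by role, for each of 3 comparisons; red points passed an adjusted p of 0.05 in the limma fit and are named, grey points did not. Junb and Tsc22d1 are the only red points, at 3.14 and 1.08 in PHZ BM HSCs against control BM HSCs.

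The most abundant gene of each role is given here, with the ligands Bmp4 and Gdf3 added after their values were seen. A most abundant gene marks the top of its list, whereas 25 of the 95 genes were not listed and 22 more were not tested. Eng, the co-receptor endoglin, was at 59.7 ± 0.593 FPKM in control BM HSCs, 67.4 ± 15.7 in PHZ BM HSCs and 56.6 ± 9.24 in PHZ SP HSCs, many times the level of any of the 4 receptor genes. Tgfb1, the TGF-beta ligand of hematopoietic cells, was at 10.1 ± 5.23, 7.25 ± 1.07 and 7.28 ± 3.14 FPKM. Bmp4, the ligand of splenic stress erythropoiesis, was at 3.87, 2.12 and 0.173 FPKM in control BM HSCs, 2.80, 2.98 and 2.72 in PHZ BM HSCs, and 10.2 and 4.02 in PHZ SP HSCs. Both splenic values were above all marrow values, and the difference from control BM HSCs was 1.52 ± 0.52 (unadjusted p = 0.0135, adjusted p = 0.188). Leaving out single libraries moved it between 0.94 and 2.10, and it was 2.28 with 0.1 FPKM added and 2.71 with voom. Gdf3, another ligand, went the other way, at 9.78 ± 1.76, 6.04 ± 0.519 and 5.68 ± 0.938 FPKM. Its difference between PHZ SP HSCs and control BM HSCs was -0.68 ± 0.24 (unadjusted p = 0.0146, adjusted p = 0.193). Of the 7 ligands tested, 3 had a positive difference in that comparison, and the median was -0.26. Nrros, which tethers latent TGF-beta at the surface of myeloid cells, was at 29.7 ± 3.44, 43.6 ± 2.81 and 32.5 ± 0.244 FPKM, with an adjusted p of 0.0865 between the marrow groups.

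Smad3, the TGF-beta-responsive Smad, was at 10.8 ± 3.90, 12.4 ± 2.56 and 13.3 ± 3.45 FPKM, a higher mean in each group than Smad1 or Smad5. Fkbp1a, whose protein holds type I receptors inactive, was at 43.9 ± 4.45 FPKM in control BM HSCs, 37.7 ± 8.94 in PHZ BM HSCs and 66.4 ± 0.0319 in PHZ SP HSCs, with an adjusted p of 0.0787 between the PHZ groups. Acvr1b, an activin type I receptor, was at 2.13 ± 0.423, 3.50 ± 0.324 and 2.36 ± 1.02 FPKM. Tcf3, the E protein E2A that Id proteins bind, was at 13.2 ± 1.35, 11.7 ± 1.96 and 10.9 ± 2.68 FPKM, with means above that of each Id gene in every group.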

How the data were processed

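RNA of sorted HSCs was measured in 8 libraries. Per the labels and the study's methods, cDNA was amplified with SMART-Seq2 and made into Nextera XT libraries, reads were mapped to mm10 with STAR, and DESeq2 was run on counts; the gene counter, annotation and strand setting are not given in the sources used here. The authors deposited FPKM values, in a table per group, scaled separately: the control table with factors over control and splenic libraries, the PHZ tables with factors over PHZ libraries. Their tables of DESeq2 comparisons, which hold fold changes and p-values, were not used. The marrow tables head their columns WBM, whereas labels and table names give BM HSC.

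Reads were recovered from the FPKM steps (108151 of 108151 values above 0 were whole within 0.0001), except that 306 genes had reads in 1 library only, and FPKM values were rescaled with median-of-ratios factors over all 8 libraries, by at most 1.05%. A single limma fit (version 3.58.1, R 4.3.3, trend and robust, two-sided) on log2(FPKM + 1) covered the 11347 genes with at least 1 FPKM in at least 2 libraries, without covariates. A run of the fit on simulated data had changes planted only in genes with more reads than Id3. That run does not bear on genes with so few reads, and its outcome is not given here. Bmpr1a came from the limma fit of the libraries with no filter. Without molecular identifiers, PCR copies count as separate reads.

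The members and gene lists were chosen with earlier results of these data known. All 10 members are named, with each gene of the wider lists past the threshold and the most abundant gene of each role. Fos, Bmp4, Gdf3, Klf10, Klrb1c, Nkg7, Pf4 and Ppbp were named after their values were seen. Coordinates are from RefSeq on GRCm38.p6 (mm10) and coding sequences from GENCODE on GRCm38. Alternatives were a pseudocount of 0.1 FPKM, no filter, FPKM as deposited, scaling to totals without Rn45s, only the 2 groups compared, voom on recovered reads, a replicate block and leaving out each library.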

Additional observations from a re-analysis of the deposited data

How the results depend on the processing

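No member passed the threshold in any comparison under any alternative run, and the lowest adjusted p a tested member reached was 0.166 between PHZ BM HSCs and control BM HSCs, 0.229 between PHZ SP HSCs and PHZ BM HSCs, and 0.166 between PHZ SP HSCs and control BM HSCs. Calls over all genes were 311, 111 and 86. With no filter they were 205, 62 and 46. Between the PHZ groups voom gave 65, and between PHZ SP HSCs and control BM HSCs a pseudocount of 0.1 FPKM gave 39 and a fit of only the 2 groups 44. Leaving out a library gave 114 to 306, 5 to 148 and 14 to 83 calls. It moved the count by over 1.5 times without control replicate 1 (181) or PHZ BM HSC replicates 1 and 2 (120 and 114) between the marrow groups, without PHZ BM HSC replicates 1 and 2 (20 and 30) or PHZ SP HSC replicates 1 and 2 (5 and 7) between the PHZ groups, and without control replicate 2 (43), PHZ BM HSC replicates 1 and 2 (44 and 33) or PHZ SP HSC replicates 1 and 2 (14 and 32) between PHZ SP HSCs and control BM HSCs. The cause was not tested.

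A replicate block gave 294, 112 and 73 calls and no member among them. Deviations from group means correlated at -0.008 to 0.06 between libraries with equal replicate numbers. With 2 or 3 libraries per group, such correlations cannot show whether equal numbers mark shared animals or days. The block put the Tsc22d1 difference between the PHZ groups at 0.054.

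The following differences, none of them called, changed sign. Between the PHZ groups, Id2 was at -0.0402 with voom. Without single libraries the ranges there were -0.65 to 1.22 for Id1, -0.39 to 0.50 for Id2, -0.0311 to 0.46 for Bmpr1a (chosen after seeing the data), -0.48 to 0.0686 for Bmpr2, -0.013 to 0.46 for Tgfbr1, -0.52 to 0.20 for Tgfbr2 and -0.10 to 0.16 for Tsc22d1. For Id1 they were -0.997 to 0.68 between the marrow groups and -0.74 to 1.14 between PHZ SP HSCs and control BM HSCs, and for Bmpr1a -0.66 to 0.16 in the latter. For Bmp4 the range was -0.0233 to 1.003 between the marrow groups, and for Pf4 -0.91 to 0.21 between PHZ SP HSCs and control BM HSCs.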
